A study of Mus musculus with 11 samples.

Results

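The collagen genes of mouse back skin with induced dermatitis were followed in 11 samples of total RNA sequencing. They were chosen by name, as every gene whose symbol consists of Col, a type number, the letter a and a chain number, with the hemidesmosome gene Col17a1 left out. This gave 43 genes of the 24411 in the files: 11 fibrillar, 9 of the basement membrane zone, 9 FACIT (fibril-associated collagens with interrupted triple helices) and 14 others. The rule uses gene names only.

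Both groups were hosts of the strain Tg(act-EGFP)Y01Osb, which carries an EGFP transgene, irradiated with 10 Gy and transplanted by the tail vein with femoral marrow cells sorted from Pdgfra-Cre;tdTomato donors. In 4 samples (PaCre+BMT) the transplanted cells were tdTomato-positive, which marks cells in which the Pdgfra promoter had driven Cre at some time, and in 7 samples (PaCre-BMT) they were tdTomato-negative. After 6 weeks all hosts received 6 topical doses of MC903 (calcipotriol), a vitamin D analog that inflames the skin and serves as a model of atopic dermatitis, and skin was taken on day 14 after induction began. The labels give the age as 16-18 with no unit, and they leave unsaid whether each sample is a separate mouse, and the tests can only measure how far these samples spread. Marrow transplantation replaces blood-forming cells, while the resident cells of the skin, most fibroblasts included, are the host's own. Skin without MC903 was not analysed here.

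A collagen is a rope of alpha chains wound around each other. Fibrillar collagens, made by dermal fibroblasts, assemble into the fibers that give skin its tensile strength, and FACIT collagens sit on the surface of those fibers. Collagens of the basement membrane zone form the sheet under the epidermis and around hair follicles, vessels and nerves, and anchor it to the dermis. Chains are modified and folded in the endoplasmic reticulum, secreted in enlarged COPII vesicles, trimmed outside the cell and cross-linked.

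Expected counts, the read counts estimated by RSEM, summed to between 7190752 and 9749842 per sample. The keratinocyte genes Krt5 and Krt14 stood at 2349 to 3553 TPM and 3147 to 12335 TPM (a transcript level corrected for length and library size) and the fibroblast genes Dcn and Lum at 361 to 769 TPM and 75.0 to 312 TPM. All 15 fibroblast markers and all 10 endothelial markers passed the filter. Of 11 cartilage and bone markers 4 passed (2 above 0 and 2 below), and the list summed to 45.7 to 62.1 TPM in the positive and 47.5 to 96.9 TPM in the negative samples. Most of that sum was Sox9, also a gene of the hair follicle, with means of 43.9 TPM in the positive and 70.7 TPM in the negative samples. Acan reached 2.21 TPM at most, Bglap 0.95 TPM, Ibsp 0.12 TPM and Matn1 0.1 TPM. A list of 28 genes of the growing hair follicle, none of them at 0 in all samples, summed to 363 to 10450 TPM in the positive and 236 to 31100 TPM in the negative samples. All 28 had a fitted log2 fold change below 0 (median -2.26), 5 of them (17.9%) at an unadjusted p under 0.05, against 9.73% of all tested genes. Its score, the mean z-score of the list, was -0.61, -1.23, -1.09 and 0.50 in positive replicates 1 to 4, and in the negative group it was -0.54 in replicate 1, -1.45 in replicate 7 and 0.73 to 1.18 in the other 5 samples. All 12 macrophage and monocyte markers lay above 0 (median 0.60), 9 of them at an unadjusted p under 0.05, against 48.6% and 7.05% of all tested genes, and summed to 932 to 2447 TPM in the positive and 794 to 1366 TPM in the negative samples. Negative replicate 1 stood apart by its cell cycle score of -2.59, where the other 10 samples lay between -0.72 and 0.88.

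Type I and type III collagen dominated. Col1a1, Col1a2 and Col3a1 together held 71.6% to 80.5% of all collagen TPM in single samples, and all 43 genes together held 1.54% to 2.38% of the expected counts in the positive and 1.31% to 3.14% in the negative samples. The beaded filament genes Col6a1, Col6a2 and Col6a3 followed, with means over the 11 samples between 153 and 174 TPM, and then Col5a2 with 137 TPM and Col4a1 with 131 TPM. All collagen TPM summed to 6069, 6178, 7562 and 4519.6 in positive replicates 1 to 4, against 3671 to 9764 in the negative samples. Fibrillar genes held 79.2 ± 2.39% of it in the positive and 80.0 ± 2.78% in the negative samples, basement membrane genes 7.10 ± 1.72% and 7.69 ± 1.80%, FACIT genes 3.32 ± 0.86% and 3.84 ± 0.87%, and the others 10.4 ± 0.91% and 8.48 ± 1.05% (SD, n = 4 and n = 7). These shares of the classes overlapped between the groups. Of the 43 genes, 36 passed the filter on low counts that the test needs, and the lowest of these, Col6a4, had a mean of 0.43 TPM. The 7 that did not pass were Col26a1, Col9a2, Col19a1, Col25a1, Col22a1, Col2a1 and Col9a1. Among these 7, Col19a1 had the most reads, 33 in the positive and 33 in the negative samples together. Col2a1, the main collagen of cartilage, had 3 reads in the positive and 12 in the negative samples, and Col9a1, its FACIT partner there, had 0 and 1. A count of 0 in a library allows up to 3 counts, so low levels of Col9a1 were not detectable at this depth.

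**Figure D1:**
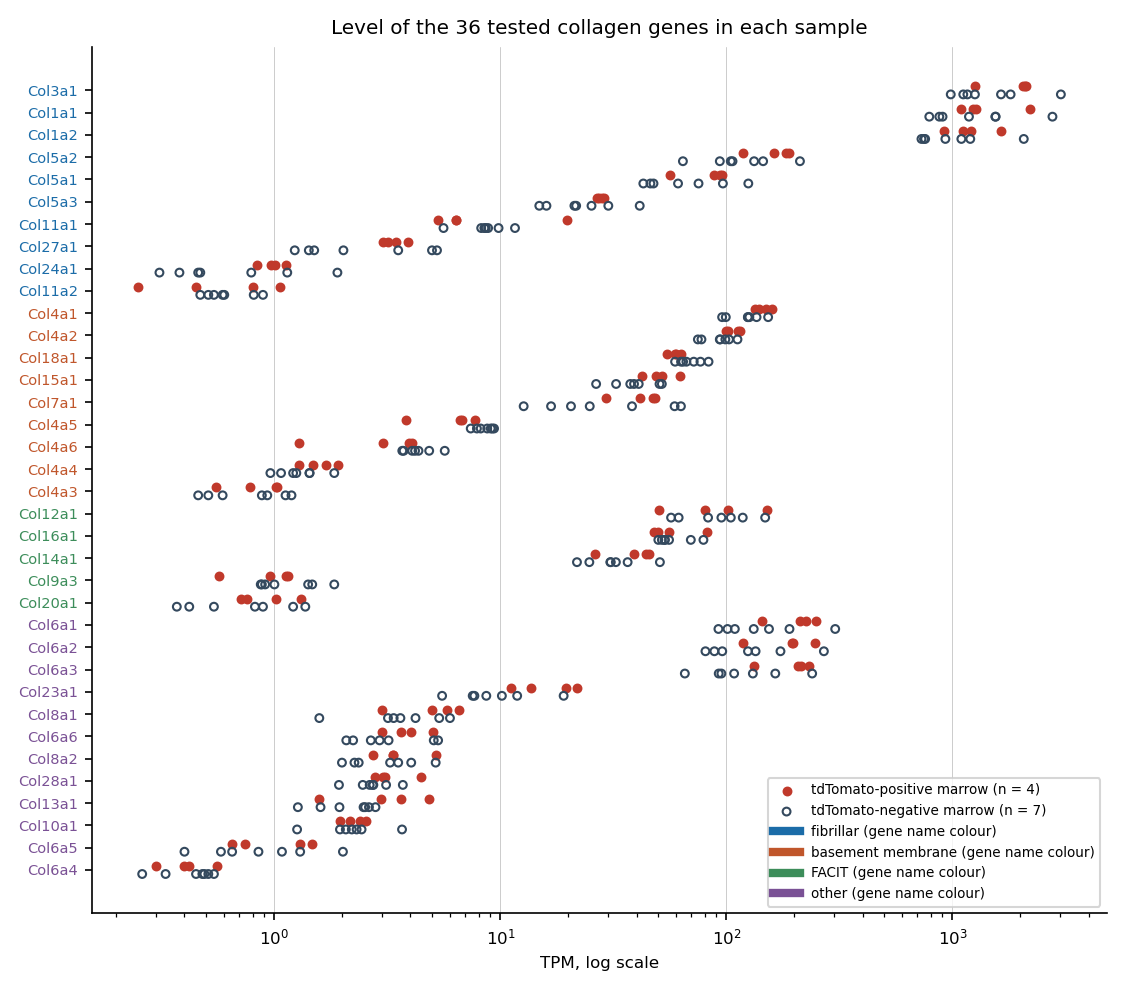
Level of each of the 36 tested collagen genes in TPM on a log scale, grouped by class (colour of the gene name) and sorted by mean level. Filled points are the 4 samples with tdTomato-positive marrow and open points the 7 with tdTomato-negative marrow; for no gene do the groups separate.

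The comparison asked whether collagen genes of dermatitis skin depend on the Pdgfra lineage of the grafted marrow. None of the 36 tested collagen genes passed edgeR's quasi-likelihood test at a Benjamini-Hochberg adjusted p of 0.05, where 0% of the 14588 tested genes passed, and the smallest adjusted p among the collagens was 0.248 (Col4a5). At an unadjusted p under 0.05, 3 of 36 (8.33%) were higher in the positive group, against 7.05% of all tested genes, and 2 of 36 (5.56%) were lower, against 9.73%. The higher ones were Col23a1, Col6a3 and Col15a1, and the lower ones Col4a5 and Col18a1. DESeq2 called 0 of the collagens and 0.318% of the genes it tested, limma-voom called 0 of the collagens and 0% of all genes, and limma-voom with sample quality weights called 5 of them and 14.3% of all tested genes. At an unadjusted p under 0.05 the weighted fit had 18 of the 36 collagens higher, against 16.8% of all tested genes, and 2 of 36 lower, against 17.5%. For no tested collagen did the TPM of the groups separate, as they did, with the positive group higher, in 0.603% of all genes and, with it lower, in 0.768%.

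The fitted log2 fold change (positive minus negative) lay above 0 in 29 of the 36 genes (80.6%), against 48.6% of all tested genes, with a median of 0.22, against -0.01 over all tested genes. By class, 10 of 10 tested fibrillar genes lay above 0 (median 0.21), 6 of 9 basement membrane genes (0.18), 3 of 5 FACIT genes (0.01) and 10 of 12 others (0.32). Chains of one molecule and genes of one cell type vary together, so these counts are not independent votes. In whole skin, fewer cells of a type and less RNA per cell cannot be told apart. The fibroblast markers, which hold no collagen, lay on the same side: 14 of 15 were above 0, with a median of 0.35, and they summed to 1499 to 2103 TPM in the positive and 971 to 1844 TPM in the negative samples. A fit that held the hair score as a term gave a collagen median of -0.06, and one that held the fibroblast score gave -0.13. In the hair fit the tested fibrillar genes above 0 were Col5a2, Col11a1 and Col24a1, and the other fibrillar genes lay below 0. The fibroblast score was -0.0715 to 1.16 in the positive and -0.955 to 0.381 in the negative samples. Both scores went partly with the group, so these fits cannot tell score and group apart. At an unadjusted p under 0.05 the hair fit had 0 collagens higher, against 3.04% of all tested genes, and 1 lower (Col18a1), against 4.42%, and the fibroblast fit had 0 higher, against 0.96%, and 0 lower, against 1.43%.

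**Figure D2:**
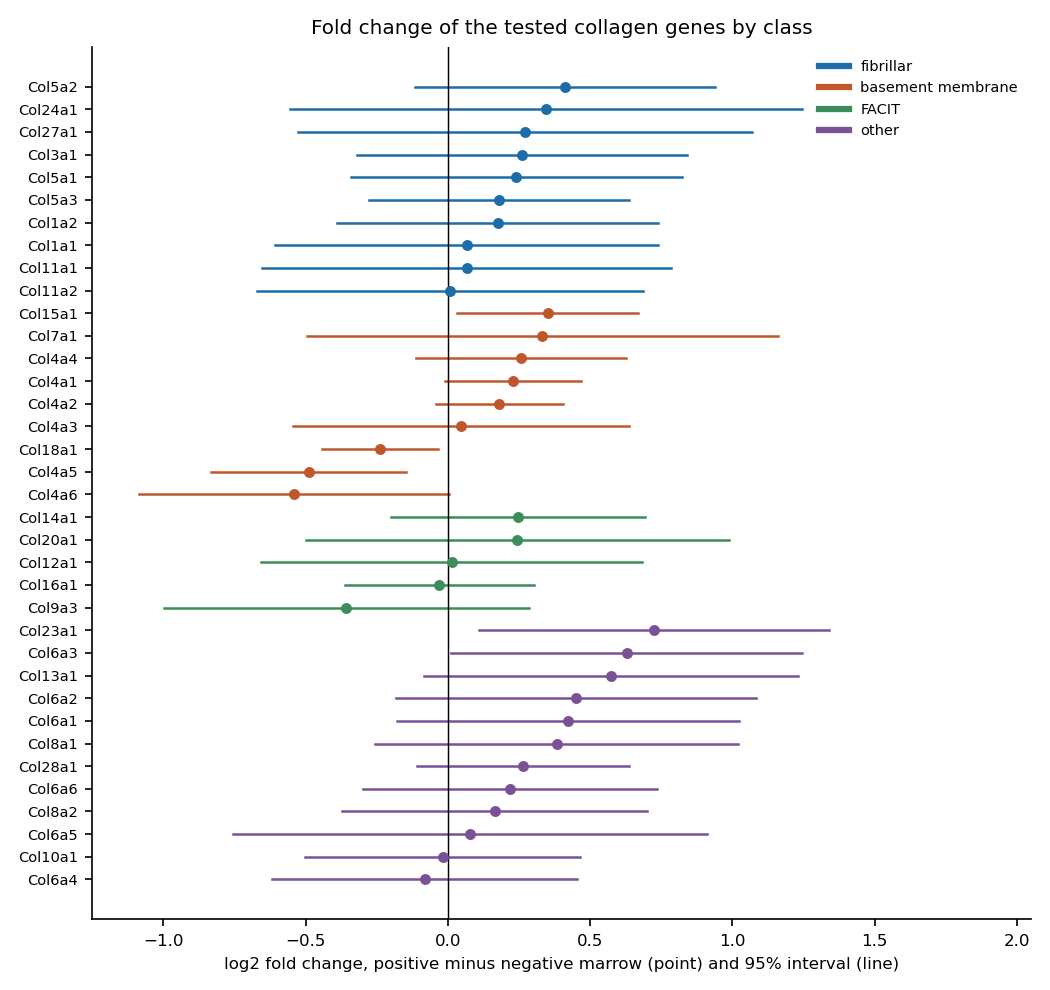
Fitted log2 fold change (positive minus negative marrow; point) with its 95% interval (line) for the 36 tested collagen genes, coloured and grouped by class. The 10 fibrillar points lie between 0.01 and 0.41 and each of their intervals includes 0, while the lowest points are the basement membrane genes Col4a6 (-0.54) and Col4a5 (-0.49).

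The count at an unadjusted p under 0.05 depended on single libraries. Without negative replicate 1 it was 12 of 36, with 9 of 36 higher, against 10.6% of all tested genes, and 3 of 36 lower, against 12%. It was 2 without positive replicate 1 (1 higher, against 3.85% of all tested genes, and 1 lower, against 5.66%). It was also 2 without positive replicate 2 (0 higher, against 4.02%, and 2 lower, against 5.08%). It was 3, with 1 higher and 2 lower, without negative replicate 3 (against 5.36% and 6.8% of all tested genes), 4 (against 5.28% and 7.83%) or 6 (against 5.13% and 7.27%). In each of the 11 fits that left out 1 library, 0 collagens passed the adjusted threshold.

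Among the fibrillar genes, Col3a1 encodes the chain of type III collagen, abundant in young and healing dermis, and had the highest mean level, 1682 TPM. It had 2096, 2044, 2114 and 1257 TPM in positive replicates 1 to 4, against 983 to 3018 TPM with a median of 1257 TPM in the negative samples. Positive replicate 4 was the low one of its group and negative replicate 1 the highest of all 11, so the groups overlapped over the whole positive range. The log2 fold change was 0.26 ± 0.27 (SE), and without negative replicate 1 it was 0.49 ± 0.19.

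Col1a1 and Col1a2 encode the chains of type I collagen, the main protein of dermal fibers. Col1a1 had 1237, 1277, 2198 and 1089 TPM in positive replicates 1 to 4, against 789.8 to 2770 TPM with a median of 1183 TPM in the negative samples (1450 ± 505 and 1375 ± 690 TPM, SD, n = 4 and n = 7). Col1a2 had 1114, 1208, 1647 and 919.6 TPM in the positive samples, against 729 to 2068 TPM with a median of 930.3 TPM in the negative samples. For both genes positive replicate 3 was the high one of its group, and negative replicate 1 was above every other sample. The log2 fold change of Col1a1 was 0.07 ± 0.31 (SE), with a 95% interval of -0.61 to 0.74, and edgeR's adjusted p was 0.932 for Col1a1 and 0.751 for Col1a2. Without negative replicate 1 the log2 fold change was 0.32 for Col1a1 and 0.41 for Col1a2. In the fit with the hair score the log2 fold changes were below 0, at -0.29 ± 0.29 for Col1a1, -0.13 ± 0.25 for Col1a2 and -0.13 ± 0.22 for Col3a1 (SE). Within the negative group alone Col1a1 spanned 3.51-fold, while the fitted fold between the groups was 1.05.

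Negative replicate 1 was the highest sample in 6 of the 10 tested fibrillar genes and in 14 of all 36, positive replicate 3 in 5 of 36 and negative replicate 7 in 5 of 36. Without negative replicate 1 the median log2 fold change of the fibrillar genes was 0.42, against 0.21 with it. Col5a2 and Col5a1, whose chains form the core of type I fibers and set their width, had 163 ± 32.1 against 123 ± 47.2 TPM and 83.3 ± 18.1 against 70.6 ± 30.7 TPM (positive against negative, SD, n = 4 and n = 7). Col11a1, a cartilage fibril chain named after its values were seen, did not share this pattern: it had 19.7 TPM in positive replicate 4, 5.28 to 6.37 TPM in the other positive samples and 5.60 to 11.6 TPM in the negative samples. Positive replicate 4 was the positive sample with a hair score above 0. The part of hair content in its Col11a1 value was not tested. In the fit with the hair score the log2 fold change of Col11a1 was 0.46 ± 0.22, against 0.07 ± 0.33 without the score (SE). Without positive replicate 4 it was -0.56 ± 0.20 (SE, unadjusted p = 0.0190, edgeR adjusted p = 0.171). Col24a1, Col27a1, Col5a3 and Col11a2 had means over all samples between 0.63 and 25.6 TPM.

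Col3a1 and Col5a2 are neighbors on chromosome 1 (45311538 to 45349706 and 45374331 to 45503282, RefSeq on GRCm38.p6), while Col1a1 lies on chromosome 11 (94936224 to 94953042) and Col1a2 on chromosome 6 (4505618 to 4541543). The bases before the start of Col3a1 and Col1a2 are shown because these abundant genes had their highest level in the same sample. Each line gives 250 bases before the annotated start, 5′ to 3′, from RefSeq on GRCm38.p6, with a match on either strand to the TATA box (TATAAA), the CAAT box (CCAAT) or the GC box (GGGCGG) in capitals; the motifs share no base here. The first is chr1:45311288-45311537 and the second chr6:4505368-4505617, both on the plus strand. 
Col3a1: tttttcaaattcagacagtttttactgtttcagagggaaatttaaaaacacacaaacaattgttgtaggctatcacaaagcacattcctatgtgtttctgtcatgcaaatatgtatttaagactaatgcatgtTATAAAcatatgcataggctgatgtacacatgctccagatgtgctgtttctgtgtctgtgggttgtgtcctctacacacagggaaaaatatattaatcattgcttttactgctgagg 
Col1a2: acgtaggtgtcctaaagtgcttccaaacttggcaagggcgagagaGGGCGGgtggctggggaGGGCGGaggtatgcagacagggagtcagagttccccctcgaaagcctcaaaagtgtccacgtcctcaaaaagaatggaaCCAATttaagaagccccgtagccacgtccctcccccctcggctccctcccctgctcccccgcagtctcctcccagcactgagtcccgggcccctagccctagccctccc 
The Col3a1 window holds 1 TATAAA and none of the others, and the Col1a2 window holds 1 CCAAT and 2 GGGCGG. Of all 32851 RefSeq windows of this length, 12.4% hold TATAAA, 33.8% CCAAT and 32.7% GGGCGG, and 34 of the 43 collagens have such a window. A match was counted at any position in the window, so it is a match of bases only.

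The proportion of chains within a sample does not depend on scaling and was compared for 4 pairs with a two-sided exact permutation test over the 330 splits, adjusted over the 4. The Col1a1 to Col1a2 ratio of TPM was 1.11, 1.06, 1.33 and 1.18 in positive replicates 1 to 4, and 1.08 to 1.42 in the negative samples (exact permutation p = 0.285, adjusted 0.517). The Col3a1 to Col1a1 ratio was 1.69, 1.6, 0.96 and 1.15 in the positive samples and 0.83 to 1.47 in the negative samples (exact permutation p = 0.388, adjusted 0.517). Positive replicates 1 and 2 thus had more Col3a1 per Col1a1 than any negative sample, and positive replicates 3 and 4 lay inside the negative range. The Col6a1 to Col6a2 ratio was 1.01 to 1.21 in the positive and 1.06 to 1.15 in the negative samples, and its test gave an exact permutation p of 0.782. The smallest p that 330 splits allow is 0.00303.

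**Figure D3:**
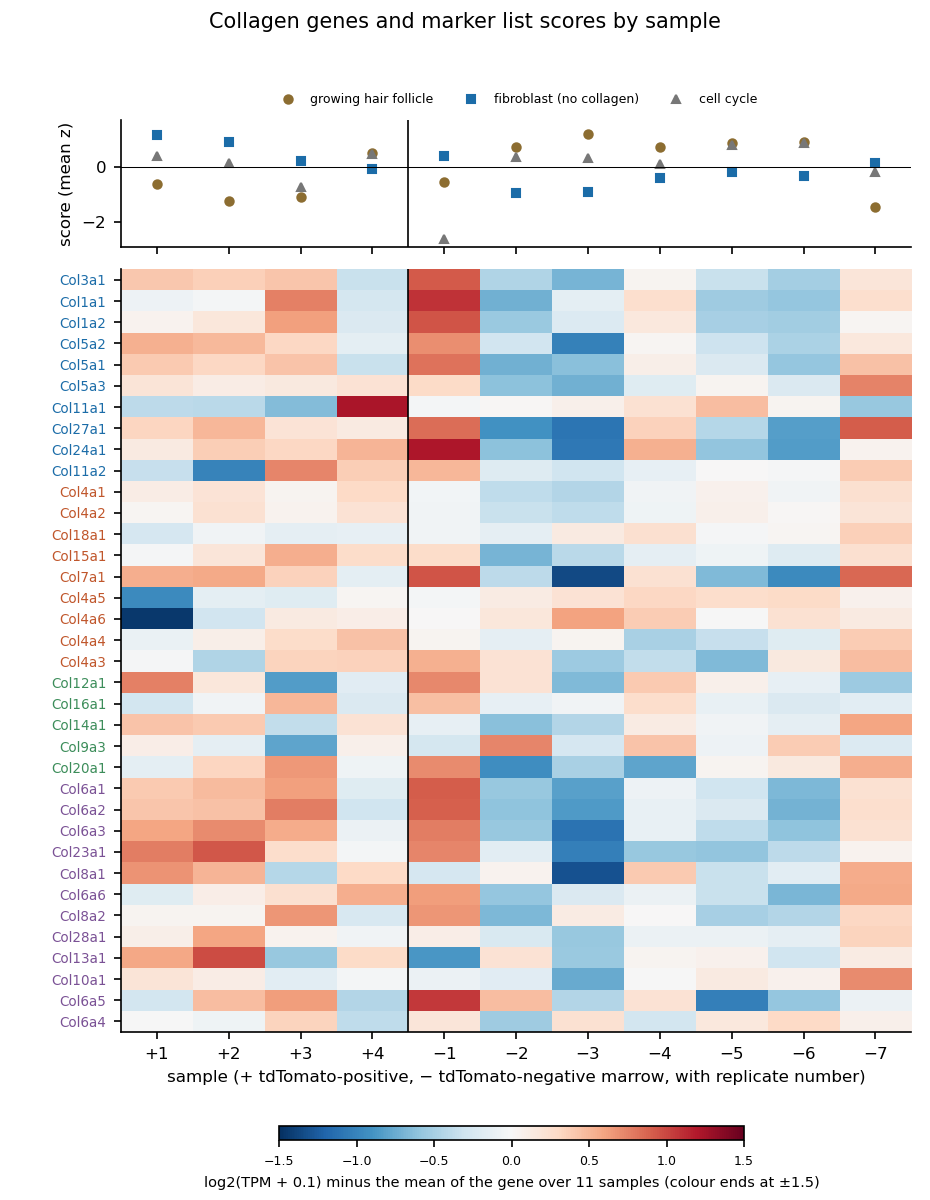
Lower panel: log2(TPM + 0.1) of each tested collagen gene minus its mean over the 11 samples (gene names coloured blue for fibrillar, orange for basement membrane, green for FACIT and purple for the others); upper panel: mean z-scores of 3 marker lists. The column of negative replicate 1 is red for most fibrillar and type VI genes, while Col4a5 and Col4a6 are blue in positive replicate 1.

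Fold changes of the basement membrane genes had both signs. Col4a1 and Col4a2 encode the chains of the type IV network found in basement membranes throughout the body, vessels included. Col4a1 had 140, 149, 133 and 159.5 TPM in positive replicates 1 to 4, against 95.7 to 153 TPM with a median of 125 TPM in the negative samples. Col4a2 had 99.8, 114, 101 and 113 TPM in the positive samples, against 74.8 to 112 TPM with a median of 93.8 TPM. All 4 positive samples lay above the negative median in both genes, and the groups overlapped. Their log2 fold changes were 0.23 ± 0.11 and 0.18 ± 0.10 (SE), both short of the adjusted threshold. The 10 endothelial markers all lay above 0, with a median of 0.38, and they summed to 152 to 202 TPM in the positive and 101 to 187 TPM in the negative samples. The part of vessel content in the Col4a1 and Col4a2 values was not tested.

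Col4a1 and Col4a2 lie head to head on chromosome 8 (11198423 to 11312889 and 11312805 to 11449287). Their annotated starts, at 11312826 on the minus and 11312805 on the plus strand, cross each other, and the Col4a1 start lies inside its span. The 22 bases between these starts, chr8:11312805-11312826 on the plus strand of GRCm38.p6, are shown because they belong to both starts, with GGGCGG in capitals. 
Col4a1 and Col4a2 starts: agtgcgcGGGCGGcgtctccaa 
The Col4a1 to Col4a2 ratio of TPM was 1.31 to 1.41 in the positive and 1.26 to 1.37 in the negative samples (exact permutation p = 0.158, adjusted 0.517). The spans of these genes overlap by 85 bases and the strand setting of the counting is not given in the sources used here, but the counts of both were whole, so RSEM divided no reads between them.

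Col4a5 and Col4a6 encode type IV chains that are found together in the basement membrane of epidermis, hair follicles and smooth muscle. Col4a5 had 3.84, 6.76, 6.63 and 7.68 TPM in positive replicates 1 to 4, against 7.39 to 9.37 TPM with a median of 8.74 TPM in the negative samples. Col4a6 had 1.29, 3.01, 4.07 and 3.96 TPM in the positive samples, against 3.68 to 5.67 TPM with a median of 4.19 TPM. Positive replicate 1 was the lowest of all samples in both genes. For Col4a5 the groups overlapped only through positive replicate 4, which lay above the lowest negative sample. The log2 fold changes were -0.49 ± 0.16 (SE, unadjusted p = 0.00918, edgeR adjusted p = 0.248) for Col4a5 and -0.54 ± 0.25 (SE, edgeR adjusted p = 0.300) for Col4a6. Without positive replicate 1 they were -0.33 and -0.29.

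The highest positive value of Col4a5 belonged to replicate 4, the positive sample with a hair score above 0, and the lowest negative values, 7.39 and 7.87 TPM, belonged to replicates 1 and 7, the negative samples with hair scores below 0. Positive replicate 1, with the lowest Col4a5 of all samples, had a higher hair score (-0.61) than positive replicates 2 and 3 (-1.23 and -1.09). Col4a6 had another order: its highest positive value, 4.07 TPM, was in replicate 3 (hair score -1.09). Its lowest negative values were 3.68 TPM in replicate 5 (hair score 0.85) and 3.73 TPM in replicate 1. Its highest negative value, 5.67 TPM, was in replicate 3, the sample with the highest hair score. The part of hair content in the Col4a5 and Col4a6 values was not tested. In the fit with the hair score the fold change of Col4a5 was -0.34 ± 0.16 and that of Col4a6 -0.38 ± 0.27 (log2, SE). Col4a5 and Col4a6 lie head to head on chromosome X (141475370 to 141689236 and 141165403 to 141474095), with 1342 bases between their starts in the RefSeq promoter table. The 250 bases before each start are shown because both genes had their lowest level in the same sample; they run 5′ to 3′ at chrX:141475169-141475418 on the plus strand for Col4a5 and chrX:141474077-141474326 on the minus strand for Col4a6, with the same motifs in capitals. 
Col4a5: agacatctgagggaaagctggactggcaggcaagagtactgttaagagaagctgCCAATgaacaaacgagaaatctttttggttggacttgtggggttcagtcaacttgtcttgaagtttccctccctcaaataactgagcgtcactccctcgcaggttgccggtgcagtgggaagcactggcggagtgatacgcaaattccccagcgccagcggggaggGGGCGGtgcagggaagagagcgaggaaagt 
Col4a6: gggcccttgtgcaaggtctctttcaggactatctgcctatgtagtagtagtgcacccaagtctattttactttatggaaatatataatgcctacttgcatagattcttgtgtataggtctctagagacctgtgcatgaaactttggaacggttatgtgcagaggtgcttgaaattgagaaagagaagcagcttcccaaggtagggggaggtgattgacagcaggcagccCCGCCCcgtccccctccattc 
Both windows hold 1 GGGCGG on one strand or the other, and the Col4a5 window also holds 1 CCAAT. The starts used for the windows, 141475419 for Col4a5 and 141474076 for Col4a6, lie inside the gene spans given above. The last bases of each window thus belong to the span of its gene. The Col4a5 GGGCGG lies within that part, and the Col4a6 match crosses the edge of the span. The Col4a5 to Col4a6 ratio of TPM, added after the data were seen, was 1.63 to 2.98 in the positive and 1.54 to 2.46 in the negative samples.

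Col18a1 and Col15a1 encode multiplexins, proteoglycan collagens that link basement membranes to the matrix around them, on chromosome 10 (77052178 to 77166530) and chromosome 4 (47207655 to 47313167). Col18a1 had 54.7, 63.0, 59.1 and 60.0 TPM in positive replicates 1 to 4, against 59.3 to 83.3 TPM with a median of 66.5 TPM in the negative samples. Col15a1, a gene of vessel and muscle basement membranes, had 42.5, 48.8, 62.5 and 52.1 TPM in the positive samples, against 26.5 to 51.8 TPM with a median of 39.0 TPM. These related genes thus had opposite signs, with all positive samples below the negative median for Col18a1 and above it for Col15a1. The log2 fold changes were -0.24 ± 0.09 for Col18a1 (edgeR adjusted p = 0.261) and 0.35 ± 0.15 for Col15a1 (edgeR adjusted p = 0.273), with SE. In the fit with the hair score that of Col18a1 was -0.27 ± 0.10 and that of Col15a1 0.21 ± 0.14. Col7a1, the anchoring fibril gene, had 41.7 ± 8.75 TPM in the positive and 33.6 ± 20.4 TPM in the negative samples (SD, n = 4 and n = 7), and spanned 4.96-fold among the negative samples. Col4a3 and Col4a4, whose chains belong mainly to kidney and lung basement membranes, were at 0.46 to 1.91 TPM.

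**Figure D4:**
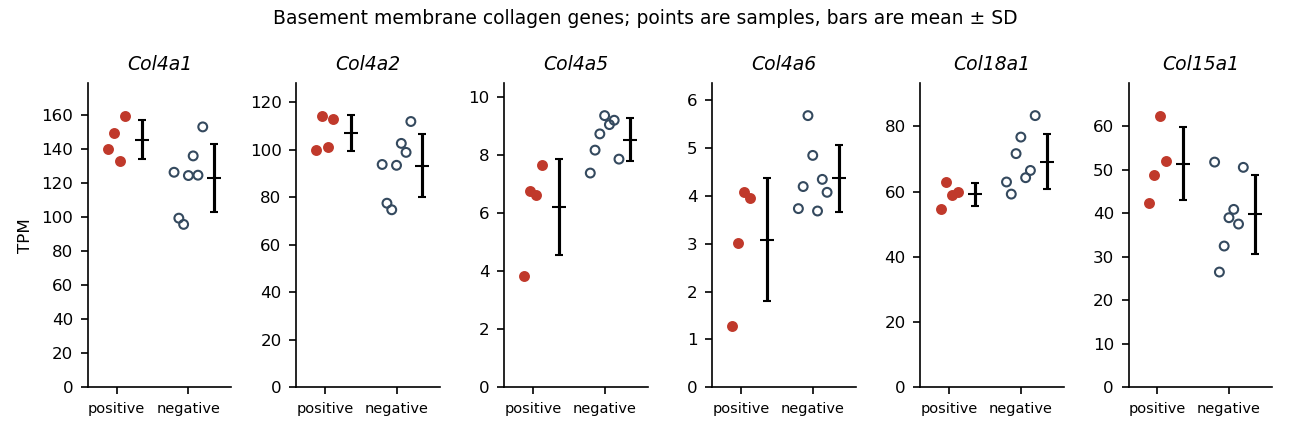
TPM of 6 basement membrane collagen genes in each sample, with tdTomato-positive marrow left (filled, n = 4) and tdTomato-negative marrow right (open, n = 7), and mean ± SD as bars. Col4a1, Col4a2 and Col15a1 have the higher mean in the positive group and Col4a5, Col4a6 and Col18a1 the lower, with overlap in every panel.

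The FACIT genes showed no shared direction. Col12a1, which coats type I fibers in tissues under load, had 152, 102, 50.4 and 80.0 TPM in positive replicates 1 to 4, against 56.9 to 148 TPM with a median of 94.99 TPM in the negative samples. The positive group held both the highest and the lowest of the 11 values, and the log2 fold change was 0.01 ± 0.31 (SE). Col16a1 had 47.7, 55.7, 82.0 and 49.7 TPM in the positive samples, against 49.97 to 79.1 TPM with a median of 53.4 TPM. Col14a1, another gene of the fiber surface in dermis, had 45.4, 44.1, 26.1 and 39.0 TPM in the positive samples, against 21.8 to 50.8 TPM with a median of 30.8 TPM. Col12a1 was lowest in positive replicate 3, the sample with the second highest Col1a1. Leaving out 1 library moved the class median between -0.06 and 0.14. Col9a3, a cartilage FACIT chain, had 1.15, 0.96, 0.57 and 1.13 TPM in the positive samples, against 0.87 to 1.84 TPM with a median of 1.0 TPM, and Col20a1 averaged 0.95 against 0.80 TPM (positive against negative). The groups overlapped in both, and the reads of Col9a3 are less certain because it overlaps Tcfl5 and part of its count was divided between genes. Col12a1 lies on chromosome 9 (79598987 to 79721141), Col16a1 on chromosome 4 (130047817 to 130099277) and Col14a1 on chromosome 15 (55307644 to 55520803).

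The other collagens held the largest fold changes. Col6a1, Col6a2 and Col6a3 encode the chains of type VI collagen, the beaded filaments around cells of dermis, fat and muscle. Col6a3 had 213, 231, 208 and 133 TPM in positive replicates 1 to 4, against 65.5 to 239 TPM with a median of 108 TPM in the negative samples. Col6a1 had 212, 224, 248 and 143 TPM in the positive samples, against 92.2 to 303 TPM with a median of 132 TPM. Col6a2 had 194, 198, 246 and 118 TPM in the positive samples, against 80.8 to 269.9 TPM with a median of 125 TPM. The pattern was that of Col3a1: positive replicate 4 was low in its group and negative replicate 1 above every other sample in all 3 genes. Col6a1 and Col6a2 are neighbors on chromosome 10 (76708792 to 76726044 and 76595756 to 76623630), and Col6a3 lies on chromosome 1 (90766860 to 90844001). The adipocyte markers had 9 of 9 above 0 (median 0.56) and the skeletal muscle markers 10 of 10 (median 0.40), against 48.6% of all tested genes. The adipocyte markers summed to 1591 to 2614 TPM in the positive and 1349 to 1926 TPM in the negative samples. The muscle markers summed to 2890 to 5745 TPM and 1745 to 5816 TPM. Positive replicate 4 had an adipocyte sum of 2408 TPM and negative replicate 1 one of 1687 TPM. The part of fat and muscle in the type VI values was not tested. The log2 fold change of Col6a3 was 0.63 ± 0.28 (SE, edgeR adjusted p = 0.293), and those of Col6a1 and Col6a2 were 0.42 and 0.45. Without negative replicate 1 those of Col6a1 and Col6a2 were 0.66 and 0.69, and in the fit with the hair score 0.01 and -0.0034. Without negative replicate 1 that of Col6a3 was 0.85, and in the fit with the hair score it was 0.20 ± 0.20.

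Col23a1 (chromosome 11, 51289679 to 51583925) and Col13a1 (chromosome 10, 61838234 to 61979206) encode collagens that span the cell membrane. Col23a1 had 19.5, 21.9, 13.7 and 11.2 TPM in positive replicates 1 to 4, against 5.52 to 19.0 TPM with a median of 8.66 TPM in the negative samples. Its log2 fold change of 0.72 ± 0.28 (SE, unadjusted p = 0.0248, edgeR adjusted p = 0.261) was the highest of the 36, and negative replicate 1 alone among the negative samples exceeded 11.9 TPM. Without negative replicate 1 it was 0.95, and in the fit with the hair score 0.34 ± 0.24. Col13a1 had 3.64, 4.82, 1.58 and 2.95 TPM in the positive samples, against 1.27 to 2.80 TPM with a median of 2.48 TPM. Here negative replicate 1 was the lowest of all samples, unlike in Col23a1. Col6a4, Col6a5 and Col6a6, the later type VI chains, had means of 0.43, 1.002 and 3.56 TPM, and the counts of Col6a5 and Col6a6 were divided between genes by RSEM and are less certain. Col6a4 had 0.42, 0.40, 0.56 and 0.30 TPM in the positive samples, against 0.26 to 0.54 TPM. Col8a1, Col8a2, Col10a1 and Col28a1 had means of 2.27 to 4.33 TPM, and Col10a1 lies within the span of Nt5dc1 (an overlap of 7105 bases), though its counts were whole, so RSEM divided none of its reads with another gene.

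Genes that build, move and bind collagen were followed in 5 lists, none of whose members passed edgeR's adjusted threshold. Over all tested genes, 48.6% lay above 0, and at an unadjusted p under 0.05 7.05% were higher and 9.73% lower. Of 18 genes of chain modification and folding, 17 lay above 0 (median 0.21) and 2 (11.1%) were higher at an unadjusted p under 0.05, against 7.05% of all tested genes: Plod1, a lysyl hydroxylase (24.3 ± 5.75 against 17.5 ± 3.92 TPM), and P3h4, a partner of collagen hydroxylases (12.6 ± 2.43 against 9.63 ± 2.12 TPM; positive against negative, SD, n = 4 and n = 7, as below). Of 5 tested genes of secretion and its control, all lay above 0 (median 0.16) and 2 were higher at an unadjusted p under 0.05 (against 7.05% of all tested genes), Sec23a and Sec24d, coat proteins of COPII vesicles. Sec23a had 29.9, 26.1, 28.8 and 26.6 TPM in positive replicates 1 to 4, against 19.1 to 26.5 TPM with a median of 23.6 TPM in the negative samples, and the groups overlapped in the range of negative replicate 1. Sec24d had 27.8 ± 2.12 against 20.5 ± 5.32 TPM.

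Of 13 tested genes of trimming and cross-linking outside the cell, 12 lay above 0, against 48.6% of all tested genes (median 0.22), and 2 (15.4%) were higher at an unadjusted p under 0.05, against 7.05%. These were Pcolce2, an enhancer of procollagen trimming, and Bmp1, the protease that trims the chain ends. Pcolce2 had 17.8, 20.8, 23.6 and 20.9 TPM in the positive samples, against 11.2 to 19.6 TPM with a median of 13.9 TPM (log2 fold change 0.50 ± 0.14, SE, edgeR adjusted p = 0.248). Bmp1 had 52.2 ± 5.25 against 45.3 ± 4.22 TPM.

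Among 10 tested collagen receptors, 6 lay above 0, against 48.6% of all tested genes (median 0.27). At an unadjusted p under 0.05, 4 were higher, against 7.05% of all tested genes, and 2 were lower, against 9.73%. The higher ones were Ddr2, Itgb1, Lair1 and Itga2, and the lower ones Adgrg1 and Ddr1. Ddr2, a receptor of fibroblasts for fibrillar collagen, had 44.1, 51.6, 46.0 and 55.9 TPM in the positive samples, against 26.2 to 51.2 TPM with a median of 35.5 TPM. Ddr1, its epithelial relative, had 50.4 ± 10.9 against 59.3 ± 4.68 TPM, so the fold changes of the pair had opposite signs (0.38 and -0.27). Itgb1, the shared subunit of collagen-binding integrins, had 161 ± 34.8 against 125 ± 17.2 TPM, and Adgrg1, an adhesion receptor for type III collagen, had 52.5 ± 12.8 against 79.7 ± 15.0 TPM. Adgrg1 was highest in replicate 4 among the positive samples (70.7 TPM) and lowest in replicates 1 and 7 among the negative samples (59.3 and 58.6 TPM), the same samples that stood apart by their hair score, and the part of hair content in this result was not tested.

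The TGF-beta list holds the growth factors that drive collagen transcription in fibroblasts, with their receptors, binding proteins and inhibitors. Of its 18 tested genes, 11 lay above 0, against 48.6% of all tested genes (median 0.17). At an unadjusted p under 0.05, 5 (27.8%) were higher, against 7.05% of all tested genes, and 3 (16.7%) were lower, against 9.73%. The higher ones were Ltbp1, Ltbp2, Tgfbr2, Tgfbr3 and Tgfb2, and the lower ones Ltbp3, Ltbp4 and Smad7. The latent TGF-beta binding proteins had different signs: Ltbp3 had 21.7 ± 4.29 against 32.2 ± 5.24 TPM, Ltbp4 30.1 ± 8.45 against 47.4 ± 12.1 TPM and Ltbp1 22.3 ± 4.03 against 15.9 ± 4.46 TPM. Ltbp2, of the same family, was higher in the positive group, with 5.02 ± 1.93 against 3.34 ± 1.04 TPM. Smad7, an inhibitor of the pathway, had 11.7, 9.39, 8.70 and 14.4 TPM in the positive samples, against 6.96 to 24.8 TPM with a median of 21.0 TPM. Smad7 was again low in negative replicates 1 and 7 (6.96 and 11.1 TPM), the negative samples with hair scores below 0, and the part of hair content was not tested.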

How the data were processed

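Total RNA of 11 back skin samples was analysed from 1 RSEM gene table per sample. Tools named in the submitters' processing notes are RSEM, Trim Galore and bcl2fastq, with GRCm38 as build; the strand setting is not given in the sources used here. Per the labels' protocols, ribosomal RNA was removed with RNase H before library preparation. The deposited expected counts are RSEM estimates of reads per gene without normalization. TPM, also deposited, was scaled by the authors by effective length to a common total. The effective lengths deposited by the authors, in bases, served in 1 alternative. Expected counts were rounded and tested with edgeR 4.0.16 (R 4.3.3; filterByExpr with minimum count 10 and total 15, TMM, glmQLFit in legacy mode, group as the only term), with Benjamini-Hochberg adjustment over all 14588 tested genes. Each standard error was derived from the fold change and its F statistic, and intervals hold 95%. Levels are TPM; tests use counts. Alternatives used DESeq2 1.42.0 and limma 3.58.1.

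The collagen genes, their classes, the 5 pathway lists and the marker lists were chosen with earlier results of these data known. The collagens named by rule are the 3 most abundant of each class and the 5 with the smallest p in each direction. For these the text gives the TPM of each positive sample and the range of the negative samples. From each pathway list up to 4 genes with the smallest unadjusted p under 0.05 are named with their levels, and Ltbp2 is given beside its family. Further receptor and TGF-beta genes at that threshold are listed by name only. Ccn2 was not matched by that symbol. No library was a copy of another: the chi-square per degree of freedom between samples was at least 3.40. The test was run on simulated data with known changes. The limit given for a count of 0 covers counting error alone, because PCR copies were not marked by molecular identifiers.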

Additional observations from a re-analysis of the deposited data

Results flagged for a closer look

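Single samples far from the rest of their group, by Dixon's criterion, were found in 7 of 56 sets of values (levels of the named collagens, chain ratios and class sums), where chance gives about 3. The sets share genes and samples, so they are not independent. Of the 7, 5 were negative replicate 1. It had 3018 TPM of Col3a1 (others 983 to 1808 TPM), 2770 TPM of Col1a1 (others 789.8 to 1553 TPM) and 2068 TPM of Col1a2 (others 729 to 1199 TPM). Its fibrillar collagens summed to 8238 TPM (others 2859.5 to 4752 TPM) and all collagens to 9764 TPM (others 3671 to 5957 TPM). In the positive group, Col3a1 was 1257 TPM in replicate 4 (others 2044 to 2114 TPM) and Col1a1 was 2198 TPM in replicate 3 (others 1089 to 1277 TPM).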

How the results depend on the processing

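The number of collagens at an unadjusted p under 0.05, 5 in the edgeR test, was 20 with limma-voom and quality weights, 1 with the hair score as a covariate, 0 with the fibroblast score and between 2 and 12 when 1 library was left out. The number called was 5 with quality weights (Col23a1, Col4a5, Col5a2, Col6a1 and Col6a3) and 0 to 0 with 1 library left out. Over all genes, DESeq2 called 47, quality weights called 2093, and leaving out 1 library gave 0 to 3, where edgeR called 0. The collagen median was -0.057 with the hair score, -0.13 with the fibroblast score, and 0.15 to 0.32 with 1 library left out. The cause was not tested.

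Among the collagens named by rule, signs turned for genes near 0 or under a covariate. With the hair score the log2 fold change was -0.29 for Col1a1, -0.13 for Col1a2, -0.13 for Col3a1 and -0.0034 for Col6a2. Beyond the named genes, that score also turned Col5a1 (-0.15), Col5a3 (-0.039), Col27a1 (-0.14), Col11a2 (-0.10) and Col7a1 (-0.15) below 0. The same held for Col20a1 (-0.13), Col6a5 (-0.34), Col8a2 (-0.11) and Col4a3 (-0.10). Other settings are given for the named genes only. With the fibroblast score it was -0.53 for Col12a1, -0.16 for Col14a1, -0.27 for Col1a1, -0.16 for Col1a2, -0.32 for Col3a1, -0.14 for Col6a1, -0.13 for Col6a2 and -0.030 for Col6a3. Col12a1 was -0.047 with limma-voom, -0.029 with limma on log2(TPM + 1) and -0.030 on log2(TPM + 0.1), and Col16a1 was 0.0061 with upper quartile scaling. With 1 library left out the ranges were -0.32 to 0.24 for Col12a1, -0.20 to 0.050 for Col16a1, -0.17 to 0.32 for Col1a1 and -0.22 to 0.051 for Col6a4, and the Col6a1 to Col6a2 log2 ratio differed by -0.057 to 0.031 between groups. The ranges of the other ratios were -0.16 to -0.05 for Col1a1 to Col1a2, 0.06 to 0.33 for Col3a1 to Col1a1, 0.03 to 0.07 for Col4a1 to Col4a2. The replicate block turned Col12a1 to -0.21, Col1a1 to -0.041 and Col6a4 to 0.052; it gave 6 collagens at an unadjusted p under 0.05 and 0 called. The labels give no pairing by replicate number. Deviations of same-numbered samples had correlations of -0.04, -0.14, -0.06 and 0.35, and none matched its own number best. This check cannot exclude a pairing.

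At this depth 7 of the 43 collagens were too low to test. With 4 against 7 samples the smallest exact permutation p is 0.00303.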
